A study of Mus musculus with 15 samples.

Results

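The genes described here are 50 genes of nucleolar ribosome biogenesis, chosen by symbol from a list that covers the steps from ribosomal DNA transcription to the assembly of the ribosomal subunits. All 50 symbols were found among the 23420 genes of the table, and all 50 were above 0 in at least 3 of 15 libraries, as were 11190 genes in all. The list holds 6 genes of RNA polymerase I and ribosomal DNA transcription, 4 of the box C/D and 4 of the box H/ACA small nucleolar ribonucleoproteins, 13 of the small subunit processome and small subunit maturation, 18 of large subunit assembly and 5 nucleolar proteins that shuttle or bear on growth. Values above 0 were found in 13 libraries for Rrp12, in 14 for Nop16, Utp20 and Nat10, and in all 15 for the other 46.

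RNA was measured in 5 groups of donor-derived B lineage cells, 3 libraries each and 100 sorted cells per library, from draining lymph nodes on day 12 after NP-CGG in complete Freund's adjuvant. In every group B cells with the B1-8hi (KI/+) receptor knock-in, marked by CD45.1, had been transferred to C57BL6 recipients, which keep their own B cells. Germinal centre cells of the dark zone (DZ) and of 3 light zone fractions carried Bcl6-YFP (KI/+) and were sorted as B220+, CD45.1+, CD38lo and GL7hi. DZ was CXCR4hi CD86lo, and all light zone fractions were CXCR4lo CD86hi. Fraction 3 was CD69lo Bcl6hi, Fraction 2 CD69hi Bcl6hi and Fraction 1 CD69hi Bcl6lo. Germinal centre derived plasmablasts (GC-PB; CD45.1+ CD138hi CD44hi tdTomato+) carried an S1pr2-ERT2cre transgene and ROSA-Ai14 (KI/+), and their hosts had received tamoxifen on days 6, 7 and 8. The red label therefore marks cells in which S1pr2 drove the recombinase when tamoxifen was given. The age and number of the mice are not given in the sources used here. Replicates are independent library preparations, and whether they came from separate mice is not said, so a p-value here reflects only how these libraries varied, which may be technical.

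Ribosomes are built mainly in the nucleolus, where RNA polymerase I transcribes a long precursor of ribosomal RNA. Small nucleolar ribonucleoproteins of the box C/D class guide its methylation and those of the box H/ACA class the conversion of uridine to pseudouridine, while large sets of assembly factors and RNA helicases fold, cut and package it into the small and large subunits. Many genes of this pathway are known targets of the transcription factor MYC, which light zone B cells induce when they receive help from T cells.

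Levels are deposited signals after each library was scaled to the same total without the ribosomal RNA row Rn45s (38594, the median library), and they are given per library in the order of replicates 1, 2 and 3. Differences are differences of log2(level + 1) between group means, with the standard error (SE) after ±, from 1 limma fit of all 15 libraries, and a gene counts as called where its p, adjusted by Benjamini and Hochberg over all 11190, fell under 0.05. The pseudocount of 1 makes the differences of low genes smaller than the ratios of their levels. Deposited totals ran from 27942 to 115088 per library. The step, taken as the most frequent value above 0 in a library, was worth 0.107 to 0.233 at equal totals. Totals came to 184103 to 376992 steps per library, and some values lay below 1 step. The Fraction 1 and GC-PB libraries carried Xist (8.94 to 14.4) with Ddx3y at 0.0406 or less, whereas the 9 others had Xist at 0 and Ddx3y at 3.91 to 6.21. In Fraction 1 vs Fraction 2 this split, like that in deposited totals and steps, coincides with the groups, and they cannot be told apart. Where GC-PB is set against DZ, or Fraction 1 against all other libraries, the split is crossed as well, and the other tested comparisons each lie on 1 side of it. Between GC-PB and Fraction 1, or GC-PB and DZ, donor genotype and tamoxifen coincide with the groups, and they cannot be told apart. Steps per library, which ran from 184103 to 216584 in GC-PB and from 326122 to 376992 in Fraction 1, also coincide with GC-PB vs Fraction 1. Among sort markers, mean Bcl6 was 17.9 in DZ, 21.3 in Fraction 3, 15.5 in Fraction 2, 3.97 in Fraction 1 and 0 in GC-PB. Transcripts of Cd69, sorted as protein, averaged 2.17 in CD69lo Fraction 3, 2.91 in CD69hi Fraction 2 and 2.65 in CD69hi Fraction 1, and were highest in GC-PB (7.90). Sdc1, which encodes CD138, averaged 13.6 in GC-PB and 0.0392 or less elsewhere, and the summed plasmablast list was 2868 to 4143 in GC-PB against 75.9 or less elsewhere. Markers of myeloid, stromal and red cells summed to 0.985 or less in every library. The 8 T cell markers summed to 5.88 or less, and most of this was Lck, above 0 in 14 libraries. Lck averaged 1.83 in DZ, 4.36 in Fraction 3, 5.02 in Fraction 2, 3.98 in Fraction 1 and 0.341 in GC-PB. Cd3e, Cd4 and Il7r were at 0 throughout, and Cd3d, Cd3g, Cd8a and Icos averaged 0.138 or less in every group. In such samples fewer cells of a type and less RNA per cell cannot be told apart.

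The 50 genes lie on 19 chromosomes of the mouse (mm10, GENCODE annotation), and 3 pairs lie within 1 Mb of each other: Nop58 and Wdr12, Emg1 and Nop2, and Nip7 and Nob1. Small nucleolar RNA genes lay inside 7 of the 50 (14%), namely Nop56, Nop58, Wdr43, Ncl, Gnl3, Ppan and Dkc1, against 1.99% of 10019 tested protein-coding genes. RefSeq promoter windows (GRCm38.p6, 250 bases before to 50 after the start) were at hand for 44 of the 50. The E-box CACGTG, which MYC with its partner MAX can bind and which reads the same on both strands, was in 6 of the 44 windows (13.6%) and in 12.2% of the windows of 8258 tested genes. The 6 matches are shown because they are the only ones among these genes, each within 30 bases of sequence with the E-box in capitals.
Nop2, chr6:125131811-125131840, + strand: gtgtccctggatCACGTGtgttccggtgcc
Grwd1, chr7:45830740-45830769, - strand: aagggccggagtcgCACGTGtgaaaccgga
Utp20, chr10:88826765-88826794, - strand: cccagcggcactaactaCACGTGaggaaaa
Pes1, chr11:3963965-3963994, + strand: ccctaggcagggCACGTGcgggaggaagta
Mybbp1a, chr11:72441347-72441376, + strand: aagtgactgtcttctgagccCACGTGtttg
Wdr43, chr17:71616220-71616249, + strand: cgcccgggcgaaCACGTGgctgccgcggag
The first base of the E-box lay 60 bases before the annotated start in Nop2 and after the start in the other 5. In the 250 bases before the start alone, 1 of 44 members (2.27%) and 10.2% of tested genes held it. An ETS-type motif, CCGGAAGT on either strand, was in 25% of the members' windows and in 10% of all windows. The GC box CCGCCC on either strand was in 70.5% and 69.1%, and TATAAA on either strand in 6.82% and 8.08%. The 250 bases before the start are given for Ncl, which was called in 4 of the 5 comparisons, and for Nip7, which was called in none, with these motifs in capitals.
Ncl, chr1:86359456-86359705, - strand: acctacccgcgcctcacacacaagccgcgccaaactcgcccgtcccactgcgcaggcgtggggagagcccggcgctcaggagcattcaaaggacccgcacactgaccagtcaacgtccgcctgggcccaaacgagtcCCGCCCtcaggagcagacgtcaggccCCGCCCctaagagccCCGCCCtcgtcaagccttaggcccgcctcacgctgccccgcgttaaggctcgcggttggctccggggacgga
Nip7, chr8:107056627-107056876, + strand: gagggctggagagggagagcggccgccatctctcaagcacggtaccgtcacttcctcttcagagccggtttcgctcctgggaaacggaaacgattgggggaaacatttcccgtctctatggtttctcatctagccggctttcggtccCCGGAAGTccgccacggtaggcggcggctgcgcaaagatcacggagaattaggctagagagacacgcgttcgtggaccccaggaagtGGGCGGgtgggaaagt
The Ncl stretch held 3 GC boxes and the Nip7 stretch 1 ETS-type match and 1 GC box, and neither held the E-box. A match is a stretch of letters and not evidence of binding.

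The transcripts of the 50 genes were most abundant in Fraction 1 and least abundant in GC-PB. Their summed level was 202.8 to 234.2 in the DZ libraries, 225.4 to 245 in Fraction 3, 352 to 372.2 in Fraction 2, 679 to 725.4 in Fraction 1 and 115.4 to 152.7 in GC-PB. DZ and Fraction 3 overlapped, and each of the other groups was separate from all others. As a share of the library total without Rn45s, the sum was 0.575% ± 0.0434 (SD, n = 3) in DZ, 0.605% ± 0.0268 in Fraction 3, 0.943% ± 0.0274 in Fraction 2, 1.80% ± 0.0692 in Fraction 1 and 0.352% ± 0.0489 in GC-PB. Fraction 1 had the highest group mean for 49 of the 50 genes, the exception being Tcof1, which was highest in Fraction 3. GC-PB had the lowest mean for 37, DZ for 7 and Fraction 3 for 6. The combination of Fraction 1 highest and GC-PB lowest held for 36 of 50 genes, against 12.2% of all tested genes. All 3 Fraction 1 libraries lay above the 12 others for 43 of 50, against 6.47% of all tested genes.

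**Figure D1:**
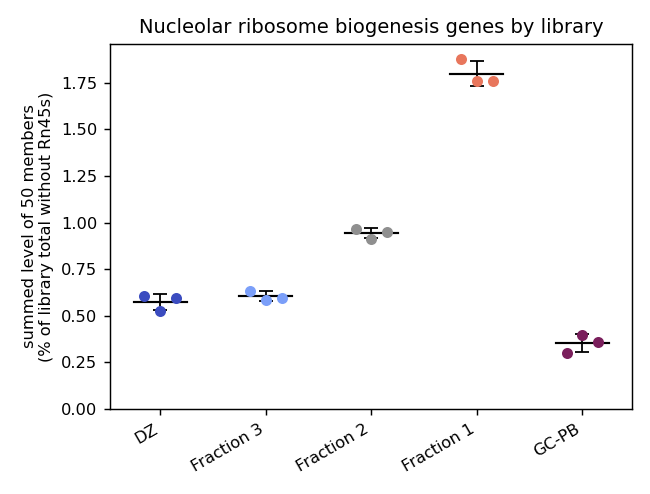
Summed level of the 50 genes in each library, as a percentage of the library total without Rn45s (vertical axis), by group (horizontal axis). Points are libraries, and lines and bars show the mean and SD of 3 libraries. Fraction 1 stood highest (mean 1.80%) and GC-PB lowest (0.352%).

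Between DZ and Fraction 3 none of the 50 genes passed the test. Limma called 0 higher and 0 lower, 4 had an unadjusted p under 0.05, and over all tested genes 0.572% were called higher and 0.483% lower. The members' median difference was 0.06 (range -0.37 to 0.61), and 26 were positive and 24 negative. In Fraction 2, 8 members were called higher than in Fraction 3 and none lower, while 0.438% of all tested genes were called higher. The median was 0.51, with 48 members positive, and the median over all tested genes was 0.00. All Fraction 2 libraries lay above all Fraction 3 libraries for 33 of the 50 members and for 961 of the 11190 tested genes. Against DZ, Fraction 2 had 21 members called higher and none lower (1.66% of all tested genes higher), with a median of 0.63. In Fraction 1, 37 members were called higher than in Fraction 2 and none lower (3.79% of all tested genes higher), and all 50 differences were positive, with a median of 0.83 against -0.04 over all tested genes. In GC-PB, 48 members were called lower than in Fraction 1 and none higher (22.3% of all tested genes lower), with a median of -1.74 against -0.06. The 2 that were not called were Nip7 and Gnl3. Neighbouring comparisons share the libraries of the group between them, so that these counts are not independent of each other. Mki67 and Top2a, genes of dividing cells, had lower means in Fraction 1 (9.72 and 12.6) than in Fraction 2 (31.0 and 30.3), and their part in the members' differences was not tested. Of the 50 genes, 36 were called both in Fraction 1 vs Fraction 2 and in GC-PB vs Fraction 1, which share the Fraction 1 libraries. Over all tested genes this pair of calls was not counted, and it cannot exceed the 3.79% called higher in Fraction 1 vs Fraction 2.

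The count in Fraction 2 vs Fraction 3 moved with the settings. It was 1 to 4 when any 1 of the 6 libraries was left out, with Ncl called each time, it was 0 when the 6 libraries were fitted alone, and it was 23 on the deposited scale. Against DZ the count of 21 fell to 10 without DZ replicate 2 or Fraction 2 replicate 1, to 12 without Fraction 2 replicate 2, to 11 without Fraction 2 replicate 3 and to 10 in its 6 libraries alone, and 6 members (Mybbp1a, Fbl, Nop58, Mrto4, Rsl1d1 and Ncl) were called whichever library was left out. The 37 calls in Fraction 1 vs Fraction 2 fell to 24 without Fraction 2 replicate 2 or Fraction 1 replicate 1 and to 23 with a pseudocount of 0.1, and 20 members were called whichever library was left out. The 48 calls in GC-PB vs Fraction 1 stayed at 48 with any 1 library left out, and 47 of them were the same genes each time, with Wdr74 lost without GC-PB replicate 3. Scaling moved the split over all tested genes. Without rescaling, the median difference over them was 0.15 in Fraction 2 vs Fraction 3, 0.13 in Fraction 2 vs DZ, 0.64 in Fraction 1 vs Fraction 2 and -0.42 in GC-PB vs Fraction 1. Genes called higher and lower in Fraction 1 vs Fraction 2 numbered 424 and 587 at equal totals, 521 and 391 with median ratios and 6120 and 63 as deposited. In GC-PB vs Fraction 1 they numbered 1573 and 2491, 2087 and 1960, and 1250 and 5130. For Fraction 2 they were 49 and 28 against Fraction 3 and 186 and 206 against DZ, and as deposited 299 and 2 and 339 and 47. On all these scales the members' calls were in 1 direction in each comparison.

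**Figure D2:**
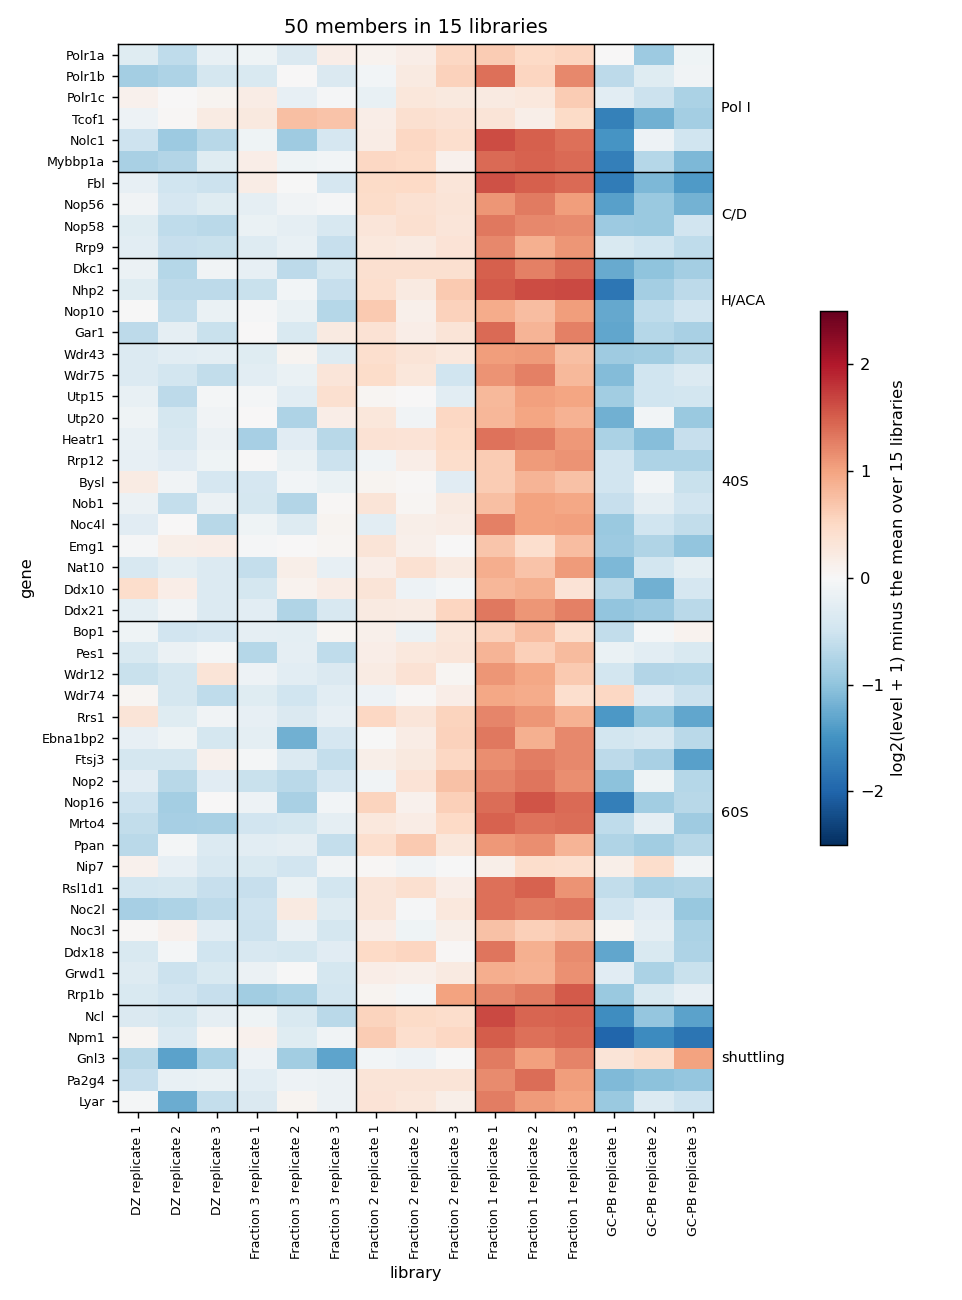
Log2(level + 1) of each of the 50 genes minus its mean over the 15 libraries (colour), with genes in rows by role and libraries in columns by group. The 3 Fraction 1 columns are the reddest for 43 genes, and the GC-PB columns are pale or red for Gnl3 and Nip7.

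Among genes of RNA polymerase I and ribosomal DNA transcription, calls before GC-PB came from 3 genes. Of the 6, 0 were called in Fraction 2 vs Fraction 3, 3 (Polr1b, Nolc1, Mybbp1a) were higher in Fraction 2 than in DZ, the same 3 were higher in Fraction 1 than in Fraction 2, and all 6 were lower in GC-PB than in Fraction 1. Mybbp1a (chromosome 11, 72441355 to 72451768), a nucleolar protein that acts in ribosomal RNA processing, read 3.04, 3.31 and 4.77 in DZ, 6.95, 5.61 and 5.81 in Fraction 3, 9.15, 8.99 and 6.67 in Fraction 2, 18.0, 18.8 and 18.0 in Fraction 1 and 1.16, 3.35 and 2.27 in GC-PB. The Fraction 1 libraries lay above all others and the GC-PB libraries overlapped only DZ. Its differences were 0.61 ± 0.20 from DZ to Fraction 3 (adjusted p = 0.231), 1.07 ± 0.20 from Fraction 2 to Fraction 1 (adjusted p = 0.00177) and -2.62 ± 0.20 from Fraction 1 to GC-PB (adjusted p = 1.29e-09). Nolc1 (chromosome 19, 46075863 to 46085530), a chaperone of small nucleolar ribonucleoproteins, read 3.2, 2.21 and 2.75 in DZ, 4.63, 2.28 and 3.52 in Fraction 3, 5.9, 7.61 and 7.11 in Fraction 2, 17.8, 16.1 and 14.7 in Fraction 1 and 1.16, 4.53 and 3.3 in GC-PB. Fraction 2 lay above Fraction 3 in all libraries, but the difference of 0.84 ± 0.25 did not pass (adjusted p = 0.149), whereas that from DZ to Fraction 2, 1.08 ± 0.25, did (adjusted p = 0.0162). The latter call was lost in 4 of the 6 fits with 1 library left out.

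Polr1b, the second-largest subunit, differed by 0.94 ± 0.25 in Fraction 2 vs DZ, 0.79 ± 0.25 in Fraction 1 vs Fraction 2 and -1.39 ± 0.25 in GC-PB vs Fraction 1, all past the test. It read 0.0801, 0.138 and 0.434 in DZ, where the step was worth 0.160, 0.138 and 0.145. Its levels were 0.873, 1.27 and 1.91 in Fraction 2 and 4.06, 1.83 and 3.51 in Fraction 1. The first 2 of these calls were each lost in 4 of the 6 fits with 1 library left out. Polr1a, Polr1c and Tcof1 were not called before GC-PB. Polr1a, the largest subunit, read 1.12, 0.69 and 1.3 in DZ, 1.45, 1.05 and 1.94 in Fraction 3, 1.81, 1.96 and 2.74 in Fraction 2, 3.06, 2.69 and 2.83 in Fraction 1 and 1.63, 0.394 and 1.45 in GC-PB, where it overlapped DZ and Fraction 3. Polr1c, a subunit shared with RNA polymerase III, read 2.4, 2.21 and 2.31 in DZ, 2.6, 1.75 and 2.11 in Fraction 3, 1.81, 2.88 and 2.74 in Fraction 2, 2.71, 2.79 and 3.94 in Fraction 1 and 1.63, 1.18 and 0.826 in GC-PB. Polr1a differed by 0.30 ± 0.23 (adjusted p = 0.543) and Polr1c by 0.26 ± 0.20 (adjusted p = 0.525) between Fraction 2 and Fraction 1, with overlapping libraries. Tcof1, or treacle, which links polymerase I transcription to processing, read 8.17, 9.25 and 10.6 in DZ, 10.9, 15.8 and 15.3 in Fraction 3, 10.2, 12.2 and 11.8 in Fraction 2, 11.4, 10.1 and 12.9 in Fraction 1 and 2.1, 3.35 and 4.54 in GC-PB. Its levels overlapped among the light zone fractions, and the GC-PB libraries lay below all others. Fraction 3 lay above DZ in every library, with a difference of 0.53 ± 0.18 that did not pass (adjusted p = 0.258). Tcof1 had a difference of 0.00 ± 0.18 between Fraction 2 and Fraction 1 (95% interval -0.38 to 0.38), the smallest of the 50, and of -1.56 ± 0.18 between Fraction 1 and GC-PB (adjusted p = 5.81e-07).

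The box C/D genes gave the same calls in 3 comparisons. All 4 were higher in Fraction 2 than in DZ, all 4 were higher in Fraction 1 than in Fraction 2 and all 4 were lower in GC-PB than in Fraction 1, with medians of 0.79, 0.84 and -2.15; in Fraction 2 vs Fraction 3, 0 of 4 were called although none of their libraries overlapped. Nop58 (chromosome 1, 59684971 to 59719044), a core protein of these particles, read 6.89, 5.24 and 5.06 in DZ, 7.67, 7.36 and 6.34 in Fraction 3, 11.1, 11.8 and 11.1 in Fraction 2, 23.4, 21.4 and 21.1 in Fraction 1 and 4.19, 4.14 and 5.99 in GC-PB. Fraction 1 was about as far above Fraction 2 (0.90 ± 0.14, adjusted p = 0.000374) as Fraction 2 was above DZ (0.88 ± 0.14, adjusted p = 0.000725). The difference between Fraction 2 and Fraction 3 was 0.60 ± 0.14 (adjusted p = 0.0563), just outside the threshold. Fbl, or fibrillarin (chromosome 7, 28169710 to 28179269), the methyltransferase of the particles, had the lowest difference but one in GC-PB. It read 4.64, 3.59 and 3.47 in DZ, 6.37, 5.43 and 3.87 in Fraction 3, 8.07, 8.19 and 7.00 in Fraction 2, 18.5, 17.2 and 16.4 in Fraction 1 and 0.931, 1.97 and 1.45 in GC-PB, and its GC-PB libraries lay below all 12 others. That difference was -2.93 ± 0.18 (adjusted p = 2.8e-11). Nop56 (chromosome 2, 130274430 to 130279313), the core partner of Nop58, read 19.9, 22.9 and 19.1 in Fraction 1 and 2.79, 4.14 and 3.3 in GC-PB, after 8.17, 6.35 and 6.94 in DZ, 7.38, 8.23 and 8.63 in Fraction 3 and 12.4, 11.8 and 11.3 in Fraction 2. Its difference in GC-PB vs Fraction 1 was -2.30 ± 0.14 (adjusted p = 2.71e-11). Rrp9, a protein of the U3 particle, had differences of 0.79 ± 0.19 in Fraction 1 vs Fraction 2 and -1.57 ± 0.19 in GC-PB vs Fraction 1. With 1 of the 6 libraries left out, its Fraction 2 vs DZ call was lost in 5 fits and its Fraction 1 vs Fraction 2 call in 1. The Nop56 call in Fraction 2 vs DZ was lost in 1 fit.

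Among the 4 box H/ACA genes, Dkc1 was called in Fraction 2 vs Fraction 3. Dkc1, Nhp2 and Gar1 were higher in Fraction 2 than in DZ and higher in Fraction 1 than in Fraction 2, and all 4 were lower in GC-PB than in Fraction 1 (median -2.27). Of the 6 fits with 1 library left out, the Fraction 2 vs DZ call was lost in 6 for Gar1 and in 4 each for Dkc1 and Nhp2. The Dkc1 call in Fraction 2 vs Fraction 3 was lost in 5, and the Gar1 call in Fraction 1 vs Fraction 2 in 2. Dkc1 (chromosome X, 75095854 to 75109777), or dyskerin, the pseudouridine synthase of the particles, read 6.73, 4.22 and 6.97 in DZ, 6.38, 4.4 and 5.28 in Fraction 3, 10.2, 10.2 and 10.2 in Fraction 2, 23.1, 19.2 and 21.6 in Fraction 1 and 2.56, 3.22 and 3.72 in GC-PB. The libraries of Fraction 2 lay close together and above all of DZ and Fraction 3, and those of GC-PB were below every other library. Its steps were 0.83 ± 0.17 (adjusted p = 0.0248), 0.99 ± 0.17 (adjusted p = 0.000572) and -2.43 ± 0.17 (adjusted p = 2.17e-10) from Fraction 3 to Fraction 2, Fraction 1 and GC-PB in turn. The gene lies on chromosome X and Fraction 1 vs Fraction 2 coincides with the split in Xist, whose part in the difference was not tested. Nhp2, a structural protein of these particles, read 4.48, 3.31 and 3.33 in DZ, 3.62, 5.43 and 3.52 in Fraction 3, 8.07, 6.92 and 9.63 in Fraction 2, 18.7, 20.1 and 20.3 in Fraction 1 and 0.931, 2.76 and 3.3 in GC-PB. Nhp2 had one of the 3 largest differences in Fraction 1 vs Fraction 2, 1.18 ± 0.23 (adjusted p = 0.00194). Nop10, the smallest protein of the complex, differed by 0.46 ± 0.21 there without passing the test (adjusted p = 0.209). Gar1, a further core protein, differed by 0.90 ± 0.21 there and by -2.12 ± 0.21 in GC-PB vs Fraction 1, both past the test.

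**Figure D3:**
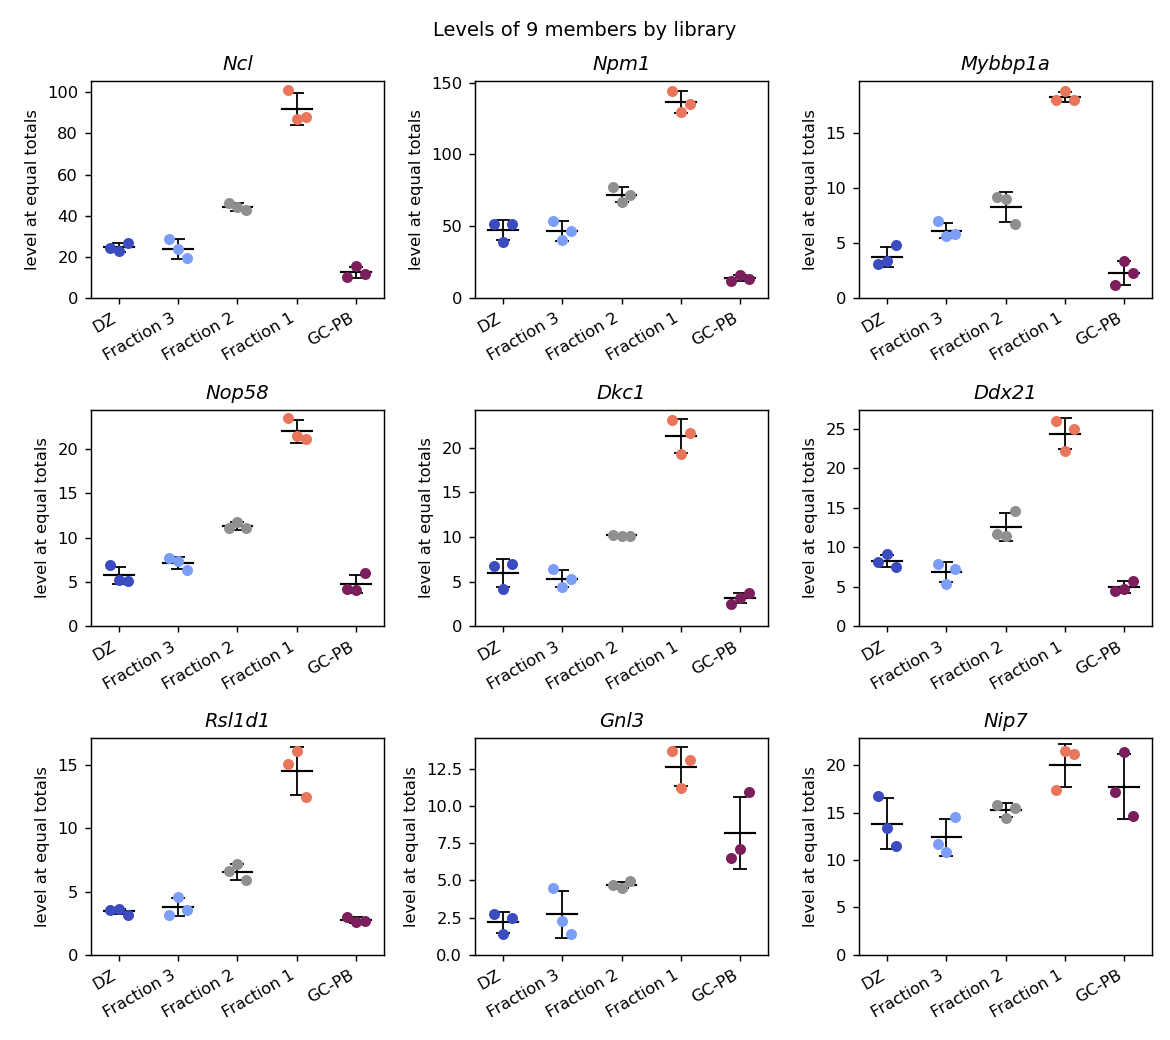
Level at equal totals (vertical axis, from 0) of 9 of the genes in each library, by group (horizontal axis), with the mean and SD of 3 libraries. Ncl, Npm1, Mybbp1a, Nop58, Dkc1, Ddx21 and Rsl1d1 fell to their lowest mean in GC-PB, whereas Gnl3 and Nip7 in GC-PB stayed above their DZ means.

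Of the 13 genes of the small subunit processome and small subunit maturation, Heatr1 and Ddx21 were called higher in Fraction 2 than in Fraction 3, 2 (Wdr43 and Ddx21) were higher in Fraction 2 than in DZ, 10 were higher in Fraction 1 than in Fraction 2 and all 13 were lower in GC-PB than in Fraction 1. The 3 not called in Fraction 1 vs Fraction 2, Utp20, Nat10 and Ddx10, had differences of 0.65, 0.64 and 0.64 and Fraction 1 libraries above all of Fraction 2. Ddx21 (chromosome 10, 62580251 to 62602281), a helicase that couples polymerase I transcription to processing, read 8.17, 9.11 and 7.52 in DZ, 7.96, 5.43 and 7.22 in Fraction 3, 11.7, 11.4 and 14.7 in Fraction 2, 26, 22.2 and 25 in Fraction 1 and 4.42, 4.73 and 5.78 in GC-PB. DZ and Fraction 3 overlapped, and each later group was separate from the one before it. Its differences were 0.79 ± 0.15 (adjusted p = 0.0128), 0.91 ± 0.15 (adjusted p = 0.000396) and -2.09 ± 0.15 (adjusted p = 2.94e-10). With 1 of the 6 libraries left out, the Ddx21 call in Fraction 2 vs DZ was lost in every fit and that of Wdr43 in 2. The Ddx21 call in Fraction 2 vs Fraction 3 was lost in 2 fits. Heatr1, a member of the subcomplex that binds the nascent precursor first, had one of the lowest differences in Fraction 3 vs DZ (-0.36) and one of the highest in Fraction 2 vs Fraction 3. It read 1.92, 1.52 and 2.03 in DZ, 0.868, 1.75 and 1.06 in Fraction 3, 3.25, 3.23 and 3.72 in Fraction 2, 7.53, 7.2 and 6.03 in Fraction 1 and 0.931, 0.591 and 1.24 in GC-PB. Heatr1 overlaps Lgals8 on the opposite strand by 875 bases. Opposite-strand overlaps were also found for Bop1 (Scx 2007 and Mroh1 50 bases), Rrp9 (Parp3, 987), Noc2l (Samd11, 651), Wdr12 (Carf, 399), Bysl (Ccnd3, 361), Emg1 (Lpcat3, 334), Rrp1b (Hsf2bp, 250) and Mybbp1a (Spns2, 131), and of 5 to 45 bases for Dkc1, Nhp2, Gnl3 and Nop56. Whether the authors' counting used strand is not given in the sources used here, and reads of such a pair may not be told apart. The Heatr1 difference of 1.00 ± 0.19 passed (adjusted p = 0.0148), with no overlap between Fraction 2 and Fraction 3. This call was lost in 5 of the 6 fits with 1 library left out.

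Utp15 and Ddx10 had differences of -0.09 ± 0.22 and 0.10 ± 0.25 between Fraction 3 and Fraction 2, among the smallest. Utp15, a partner of Heatr1, read 0.961, 0.414 and 1.16 in DZ, 1.16, 0.876 and 1.94 in Fraction 3, 1.32, 1.27 and 0.875 in Fraction 2, 2.94, 3.55 and 3.45 in Fraction 1 and 0.233, 0.591 and 0.62 in GC-PB, and the first 3 groups overlapped. Ddx10, an RNA helicase, read 2.72, 2.07 and 1.16 in DZ, 1.01, 1.93 and 2.11 in Fraction 3, 2.41, 1.5 and 1.64 in Fraction 2, 3.88, 4.08 and 2.46 in Fraction 1 and 0.699, 0.197 and 1.03 in GC-PB. Bysl, which acts late in small subunit maturation, read 2.08, 1.52 and 1.01 in DZ, 1.01, 1.58 and 1.41 in Fraction 3, 1.81, 1.73 and 1.2 in Fraction 2, 3.18, 3.87 and 3.45 in Fraction 1 and 0.931, 1.58 and 0.826 in GC-PB. Its libraries overlapped from DZ to Fraction 2, and all of Fraction 1 lay above them. In Fraction 1 vs Fraction 2 the called differences of this role ran from 0.48 (Emg1, a methyltransferase of the small subunit RNA) to 1.07 (Noc4l). Wdr43 and Wdr75, which act with Heatr1 on the nascent precursor, differed by 0.61 ± 0.14 and 0.99 ± 0.25 there and by -1.78 ± 0.14 and -1.71 ± 0.25 in GC-PB vs Fraction 1. Nob1, the nuclease that makes the last cut of small subunit RNA, differed by 0.71 ± 0.21 and -1.33 ± 0.21 in these 2 comparisons. All of these passed the test, but in Fraction 1 vs Fraction 2 the Nob1 call was lost with any 1 of the 6 libraries left out. The Wdr75 call was lost in 3 of these 6 fits, and the Bysl, Emg1 and Rrp12 calls in 3, 4 and 4. Rrp12, a factor of subunit export, was listed at 0 in GC-PB replicates 2 and 3, and Utp20 and Nat10, the latter an RNA acetyltransferase, were listed at 0 in GC-PB replicate 1.

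The 18 genes of large subunit assembly gave 3 calls in Fraction 2 vs Fraction 3 (Pes1, Ppan and Rsl1d1), 4 in Fraction 2 vs DZ (Mrto4, Ppan, Rsl1d1 and Noc2l), 12 in Fraction 1 vs Fraction 2 and 17 in GC-PB vs Fraction 1. Rsl1d1 (chromosome 16, 11192970 to 11203331), a nucleolar protein with a ribosomal L1 domain, read 3.52, 3.59 and 3.18 in DZ, 3.18, 4.56 and 3.52 in Fraction 3, 6.62, 7.15 and 5.91 in Fraction 2, 15.1, 16.1 and 12.4 in Fraction 1 and 3.03, 2.56 and 2.69 in GC-PB. Every step after Fraction 3 separated the libraries, and GC-PB lay below all of DZ. Its differences were 0.68 ± 0.15 (adjusted p = 0.0383), 1.04 ± 0.15 (adjusted p = 0.000126) and -2.04 ± 0.15 (adjusted p = 5.74e-10). With 1 library left out, the Rsl1d1 and Pes1 calls in Fraction 2 vs Fraction 3 were each lost in 5 of 6 fits, and that of Ppan in all 6. In Fraction 2 vs DZ, Ppan lost its call in 3 fits and Noc2l in 2. Noc2l, a nucleolar complex protein that also binds histones, read 1.44, 1.52 and 1.74 in DZ, 2.03, 4.03 and 2.47 in Fraction 3, 4.33, 3.23 and 4.16 in Fraction 2, 10.2, 9.67 and 9.97 in Fraction 1 and 2.1, 2.56 and 1.24 in GC-PB. Fraction 3 already lay above DZ in every library, although the difference of 0.55 ± 0.20 did not pass (adjusted p = 0.285). Mrto4, which holds the place of the stalk protein in early large subunits, read 0.961, 0.69 and 0.723 in DZ, 1.16, 1.23 and 1.58 in Fraction 3, 2.65, 2.42 and 3.28 in Fraction 2, 7.41, 6.77 and 6.89 in Fraction 1 and 0.931, 1.58 and 0.62 in GC-PB. From DZ to Fraction 2 it differed by 1.08 ± 0.19 (adjusted p = 0.00159), one of the 3 largest differences there.

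The PeBoW complex of Pes1, Bop1 and Wdr12, which large subunit processing requires, gave different calls. Pes1 was called in Fraction 2 vs Fraction 3 (0.76 ± 0.17, adjusted p = 0.0406) but not in Fraction 1 vs Fraction 2 (0.50 ± 0.17, adjusted p = 0.0708), Wdr12 only narrowly in the latter (0.71 ± 0.22, adjusted p = 0.0491), and Bop1 in neither. Whether these differences differ between the 3 genes was not tested. The Wdr12 call was lost with any 1 of the 6 libraries left out. Bop1 had one of the 3 smallest differences in GC-PB vs Fraction 1. It read 2.4, 1.66 and 1.74 in DZ, 2.17, 2.1 and 2.82 in Fraction 3, 3.01, 2.31 and 3.5 in Fraction 2, 4.47, 5.27 and 3.94 in Fraction 1 and 1.4, 2.56 and 2.89 in GC-PB, so that GC-PB lay below Fraction 1 but overlapped the other groups. The difference was -0.78 ± 0.20 (adjusted p = 0.00349). Rrp1b read 0.801, 0.69 and 0.579 in DZ, 0.289, 0.35 and 0.704 in Fraction 3, 1.44, 1.27 and 3.72 in Fraction 2, 4.35, 4.73 and 5.79 in Fraction 1 and 0.233, 0.788 and 1.03 in GC-PB. Its difference of 1.05 ± 0.26 in Fraction 2 vs Fraction 3, the largest of the 50 there, did not pass (adjusted p = 0.0645). Fraction 2 replicate 3 lay well above the other 2 libraries of its group. Ebna1bp2 and Noc3l had low differences in Fraction 3 vs DZ, -0.37 ± 0.22 and -0.33 ± 0.22, and neither passed. Ebna1bp2 read 2.4, 2.62 and 1.88 in DZ, 2.32, 0.701 and 1.94 in Fraction 3, 2.89, 3.46 and 4.81 in Fraction 2, 8.71, 6.23 and 8.00 in Fraction 1 and 1.86, 1.97 and 1.45 in GC-PB. Noc3l read 1.12, 1.24 and 0.723 in DZ, 0.434, 0.876 and 0.528 in Fraction 3, 1.32, 0.923 and 1.31 in Fraction 2, 2.47, 2.15 and 2.34 in Fraction 1 and 1.16, 0.788 and 0.207 in GC-PB, and for both genes DZ overlapped Fraction 3.

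The 8 other large subunit genes had positive differences in Fraction 1 vs Fraction 2. The methyltransferases Nop2 and Ftsj3 differed by 0.92 ± 0.23 and 0.91 ± 0.21, the helicase Ddx18 by 0.78 ± 0.21, and Grwd1, a chaperone of a ribosomal protein, by 0.80 ± 0.20. Rrs1 and Nop16, both factors of early large subunit maturation, differed by 0.60 ± 0.18 and 1.04 ± 0.27. These 6 were called, whereas Ppan, of the Brix family, and Wdr74 had differences of 0.58 ± 0.19 (adjusted p = 0.056) and 0.76 ± 0.25 (adjusted p = 0.0639). The Rrs1 call was lost with any 1 of the 6 libraries left out, and that of Nop2 in 4 of these 6 fits. Ddx18 and Nop16 lost theirs in 3 each, Grwd1 in 2 and Ftsj3 in 0. In GC-PB vs Fraction 1 all 8 were called, from -2.56 (Nop16) to -0.89 (Wdr74).

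Nip7 (chromosome 8, 107056877 to 107060931), a factor of large subunit processing, was the only one of the 50 called in no comparison. It read 16.7, 13.4 and 11.5 in DZ, 11.7, 10.9 and 14.5 in Fraction 3, 15.8, 14.4 and 15.5 in Fraction 2, 17.4, 21.5 and 21.1 in Fraction 1 and 17.2, 21.4 and 14.6 in GC-PB. The GC-PB libraries lay above Fraction 3 and overlapped those of DZ, Fraction 2 and Fraction 1. Its difference was 0.36 ± 0.15 in Fraction 1 vs Fraction 2 (adjusted p = 0.154) and -0.17 ± 0.15 in GC-PB vs Fraction 1 (adjusted p = 0.409; 95% interval -0.49 to 0.14), and the latter was 0.11 with median ratios. In all 15 libraries the value of Nip7 was not a whole multiple of the library's step, as also for Dkc1 in 9, Polr1b in 7 and Ncl in 5 libraries. How the counting gave such values is not given in the sources used here, and reads shared with other genes would make these levels uncertain.

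All 5 nucleolar shuttling and growth genes were higher in Fraction 2 than in DZ and higher in Fraction 1 than in Fraction 2, and 4 were lower in GC-PB than in Fraction 1. In Fraction 2 vs DZ the Gnl3 call (adjusted p = 0.0482) was lost with any 1 of the 6 libraries left out. The Lyar call was lost in 5 of these 6 fits, and of the 5 genes only Ncl was called in every one. In Fraction 1 vs Fraction 2 the Lyar call was also lost in 5 of 6 fits. Ncl, or nucleolin (chromosome 1, 86344719 to 86359400), which binds ribosomal RNA precursors and chromatin of ribosomal DNA, read 24.2, 22.8 and 26.7 in DZ, 28.8, 23.7 and 19.2 in Fraction 3, 46.2, 44.2 and 42.6 in Fraction 2, 101, 87.0 and 88.2 in Fraction 1 and 10.01, 15.6 and 11.8 in GC-PB. DZ and Fraction 3 overlapped, and Fraction 2, Fraction 1 and GC-PB were each separate from all other groups. The difference was 0.88 ± 0.14 from Fraction 3 to Fraction 2 (adjusted p = 0.00386), 1.03 ± 0.14 from Fraction 2 to Fraction 1 (adjusted p = 7.64e-05) and -2.81 ± 0.14 from Fraction 1 to GC-PB (adjusted p = 1.84e-12). Npm1, or nucleophosmin (chromosome 11, 33152287 to 33163206), a chaperone that shuttles between nucleolus and cytoplasm, read 51.6, 39.1 and 51.2 in DZ, 53.8, 40.1 and 46.5 in Fraction 3, 77.5, 66.7 and 71.7 in Fraction 2, 144, 129.9 and 135 in Fraction 1 and 11.9, 16.0 and 13.2 in GC-PB. The groups separated as for Ncl, and its difference of -3.23 ± 0.13 in GC-PB vs Fraction 1 was the lowest of the 50 (adjusted p = 3.53e-14).

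Gnl3, or nucleostemin (chromosome 14, 31012433 to 31019152), a nucleolar GTPase, had the largest difference of the 50 in Fraction 1 vs Fraction 2 and the smallest but one in GC-PB vs Fraction 1. It read 2.72, 1.38 and 2.46 in DZ, 4.49, 2.28 and 1.41 in Fraction 3, 4.7, 4.5 and 4.92 in Fraction 2, 13.6, 11.2 and 13 in Fraction 1 and 6.52, 7.09 and 10.9 in GC-PB. The GC-PB libraries lay below Fraction 1 and above all of DZ, Fraction 3 and Fraction 2. The difference was 1.25 ± 0.24 in Fraction 1 vs Fraction 2 (adjusted p = 0.00191) and -0.60 ± 0.24 in GC-PB vs Fraction 1 (adjusted p = 0.0573), and its side of the threshold depended on the settings. It passed with Rn45s kept in the total (adjusted p = 0.0337), with a pseudocount of 5 (adjusted p = 0.0155), among genes above 0 in at least 9 libraries (adjusted p = 0.0386) and on the deposited scale (-1.29, adjusted p = 0.000343), and did not with median ratios (-0.34, adjusted p = 0.316) or a pseudocount of 0.1 (adjusted p = 0.112). Pa2g4 and Lyar, which bear on growth, had differences of -2.24 ± 0.13 and -1.70 ± 0.23 in GC-PB vs Fraction 1. Compared with DZ, all 3 GC-PB libraries were below all 3 DZ libraries for 20 of the 50 genes, against 27.3% of all tested genes, and this pair of groups was not tested.

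**Figure D4:**
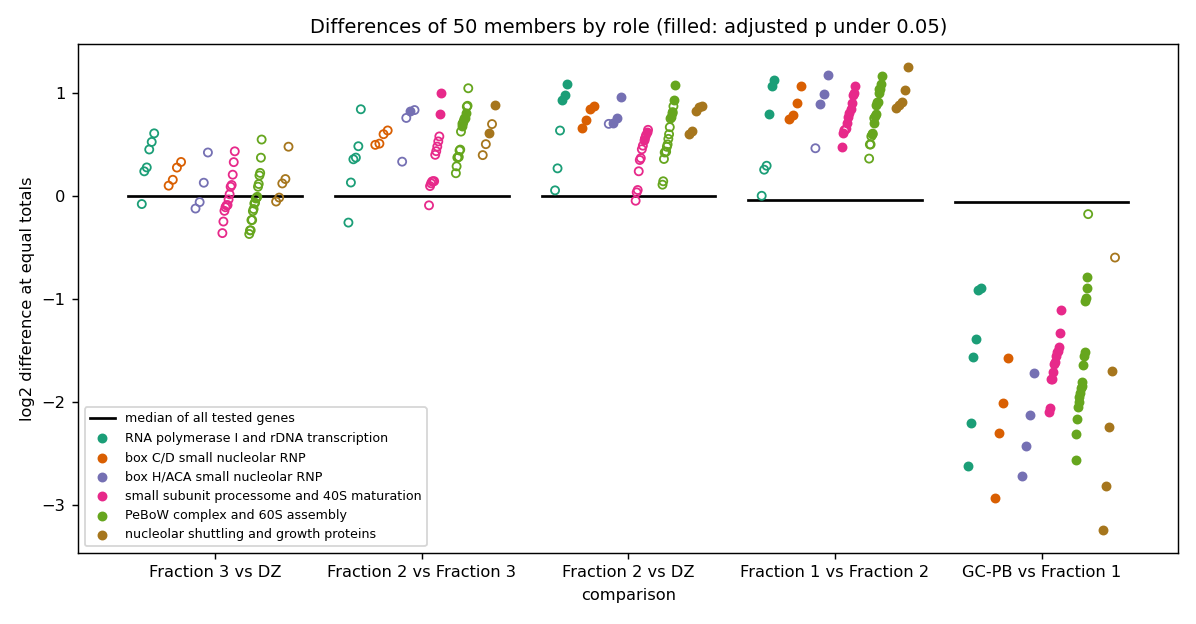
Log2 difference at equal totals (vertical axis) of each of the 50 genes in 5 comparisons (horizontal axis), coloured by role, filled where the adjusted p was under 0.05; black lines mark the median of all tested genes. The members' medians are 0.06, 0.51, 0.63, 0.83 and -1.74 from left to right.

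Other genes of ribosome biogenesis, 134 in 5 lists that hold none of the 50, gave calls in the same direction, with medians nearer 0. In Fraction 3 vs DZ, 0 of 134 were called by limma (8 with an unadjusted p under 0.05), in Fraction 2 vs Fraction 3 the processome gene Nol6 alone (0.96 ± 0.21, adjusted p = 0.0346), and in Fraction 2 vs DZ 7, all higher. Over all tested genes, 0.438% were called higher in Fraction 2 vs Fraction 3 and 1.66% in Fraction 2 vs DZ. The call of Nol6 alone among 134 is near the former share. In Fraction 1 vs Fraction 2, 40 were higher and none lower (median 0.43), against 3.79% of all tested genes higher. In GC-PB vs Fraction 1, 105 were lower and none higher (median -0.96), against 22.3% of all tested genes lower. The list of RNA polymerase I subunits and factors includes Polr2e, Polr2f and Polr2h, which RNA polymerases II and III share. By list, the calls in Fraction 1 vs Fraction 2 and in GC-PB vs Fraction 1 were 5 and 13 of 17 genes of that list, 16 and 33 of 45 small subunit genes, 15 and 42 of 47 large subunit genes, 1 and 10 of 14 nuclear exosome genes and 3 and 7 of 11 small nucleolar RNA host genes. Examples were Brix1, a large subunit factor (1.12 ± 0.18 in Fraction 1 vs Fraction 2 and -1.33 ± 0.18 in GC-PB vs Fraction 1), and Pno1, a small subunit factor (1.09 ± 0.19 and -1.80 ± 0.19). Exosc8 of the exosome, which trims ribosomal RNA precursors, differed by -0.12 ± 0.21 and -1.43 ± 0.21, and the host gene Gas5 by 0.41 ± 0.13 and -1.57 ± 0.13. Riok1, a kinase of late small subunit maturation, was higher in Fraction 2 than in DZ (0.77 ± 0.20, adjusted p = 0.0321) and had a difference of 0.02 ± 0.20 in GC-PB vs Fraction 1.

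Myc was called higher in Fraction 3 than in DZ, where 0 of the 50 genes were, and the difference between these results was not tested. It read 0.48, 0.828 and 0.434 in DZ, 1.88, 2.98 and 4.23 in Fraction 3, 5.18, 4.27 and 3.94 in Fraction 2, 11.1, 10.7 and 14.8 in Fraction 1 and 2.33, 0.985 and 1.03 in GC-PB. Fraction 3 lay above DZ in every library, and Fraction 2 overlapped Fraction 3. The differences were 1.32 ± 0.23 in Fraction 3 vs DZ (adjusted p = 0.00452), 0.47 ± 0.23 in Fraction 2 vs Fraction 3 (adjusted p = 0.441), 1.27 ± 0.23 in Fraction 1 vs Fraction 2 (adjusted p = 0.00107) and -2.46 ± 0.23 in GC-PB vs Fraction 1 (adjusted p = 1.99e-08). In Fraction 3 vs DZ the Myc call held with any 1 library left out (limma adjusted p up to 0.0493). With the 6 libraries fitted alone it did not pass (adjusted p = 0.159), nor did any other gene. Mycn was above 0 in 1 library only, GC-PB replicate 1 (0.233). Of the other members of the MYC network, Max, the shared partner, read 3.88, 4.84 and 3.57 in Fraction 1 and 0.233, 0.788 and 0.413 in GC-PB (-1.80 ± 0.18, adjusted p = 7.8e-08). The MYC antagonists Mxd1, Mxd4 and Mxi1 were higher in GC-PB than in Fraction 1, and Mxd4 read 3.73, 5.32 and 3.1 in GC-PB (2.16 ± 0.22, adjusted p = 1.07e-07). Mxd3 was lower in Fraction 1 than in Fraction 2 (-1.18 ± 0.28, adjusted p = 0.0091).

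**Figure D5:**
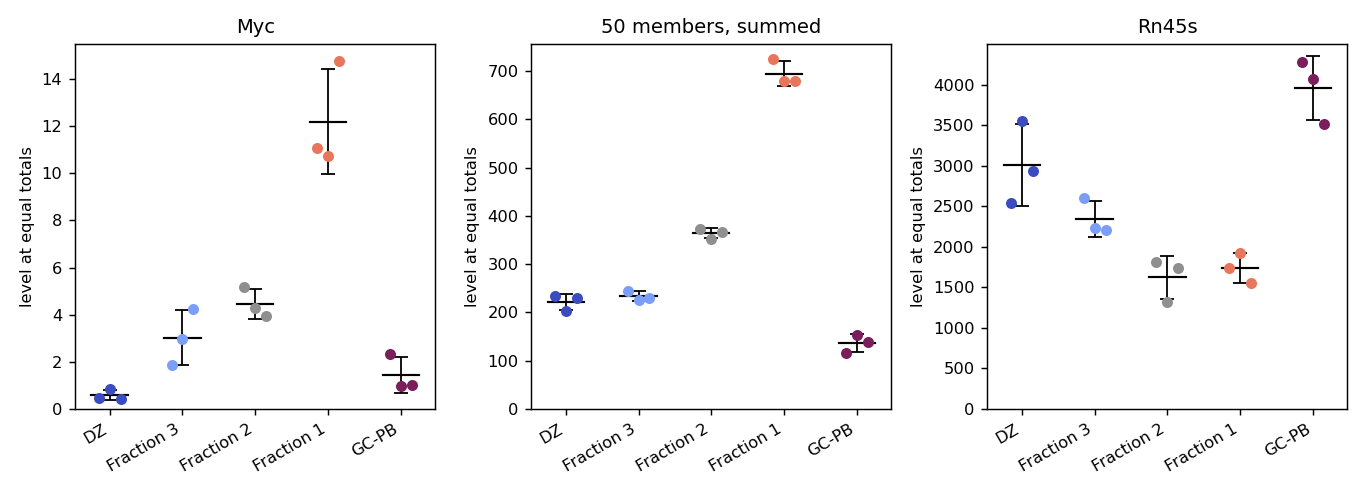
Level at equal totals (vertical axes, from 0) of Myc, of the 50 genes summed and of Rn45s in each library, by group (horizontal axes), with the mean and SD of 3 libraries. Myc and the summed genes are highest in Fraction 1, and Rn45s is highest in GC-PB and lower in Fraction 2 and Fraction 1.

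The row Rn45s, which spans the ribosomal RNA precursor with its mature parts, ran against the genes at 2 steps. It read 2539.6, 3549.6 and 2934 in DZ, 2599, 2227 and 2205 in Fraction 3, 1814, 1322 and 1740.3 in Fraction 2, 1739, 1926 and 1555 in Fraction 1 and 4274, 4074 and 3512 in GC-PB. GC-PB was the highest group with 1 library of DZ above its lowest, DZ overlapped Fraction 3 with a difference of -0.35 ± 0.12 (adjusted p = 0.255), and Fraction 2 and Fraction 1 overlapped. As a share of the deposited total it was 7.22% ± 1.13 (SD, n = 3) in DZ, 5.72% ± 0.509 in Fraction 3, 4.04% ± 0.635 in Fraction 2, 4.31% ± 0.439 in Fraction 1 and 9.29% ± 0.845 in GC-PB. The difference was -0.89 ± 0.12 in Fraction 2 vs DZ (adjusted p = 0.000104) and 0.11 ± 0.12 in Fraction 1 vs Fraction 2 (adjusted p = 0.712), where it was 1.56 as deposited (adjusted p = 8.43e-07) and -0.04 without Fraction 2 replicate 2. In GC-PB vs Fraction 1 it was 1.18 ± 0.12 (adjusted p = 8.18e-08). In Fraction 2 vs Fraction 3 it was -0.54 ± 0.12 (adjusted p = 0.0414), a call that was lost with any 1 of the 6 libraries left out (-0.62 to -0.40) and as deposited (-0.11). In Fraction 2 vs DZ it was -0.54 as deposited and no longer passed (adjusted p = 0.108). Reverse transcription was primed with a run of T bases, so that Rn45s measures the part of ribosomal RNA that this primer caught and not the rate at which the precursor was made.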

How the data were processed

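The authors' deposited table holds 1 signal value per gene and library from 15 libraries of 100 sorted cells. Per the labels' protocols, RNA was fragmented by heat, reverse transcribed with an oligo-dT primer and a molecular barcode, and amplified after template switching. TopHat2 and mm10 are named in the submitters' processing notes, and how the signal was scaled is not given in the sources used here. Of the values above 0, 91.0 to 92.6% were whole multiples of 1 step per library (tolerance 0.02 steps), too few for a count test. Each library was divided by its total without Rn45s and multiplied by 38594. Genes above 0 in at least 3 libraries were tested on log2(level + 1) with limma 3.58.1 in R 4.3.3 (trend, 5 group means and 15 libraries in 1 fit). The fit was run on simulated whole-step counts, with changes set only in genes of many steps. That check does not cover members with low levels or values that are not whole multiples. Alternatives were other scalings, pseudocounts and filters, 6 libraries alone, a replicate block and leaving out each library. No library or column was left out of the main values. Members named with values in every library were, per role, those with the smallest p in 3 of the comparisons, the 3 highest and 3 lowest differences of each comparison and those never called, with Rn45s, Myc and Mycn. The members and lists were chosen with earlier results of these data known. E-box sites and promoter stretches were read from RefSeq windows (GRCm38.p6), and positions from GENCODE on the same build. Figures used matplotlib 3.10.9 in Python 3.11.15.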

Additional observations from a re-analysis of the deposited data

How the results depend on the processing

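The counts of called genes over all tested genes were 118 in Fraction 3 vs DZ, 77 in Fraction 2 vs Fraction 3, 392 in Fraction 2 vs DZ, 1011 in Fraction 1 vs Fraction 2 and 4064 in GC-PB vs Fraction 1, and those of members 0, 8, 21, 37 and 48. As deposited, all called genes numbered 27 in Fraction 3 vs DZ, 301 in Fraction 2 vs Fraction 3, 6183 in Fraction 1 vs Fraction 2 and 6380 in GC-PB vs Fraction 1, and members 23 in Fraction 2 vs Fraction 3. With median ratios Fraction 2 vs Fraction 3 gave 44 genes and 5 members. A pseudocount of 0.1 gave 60 genes in Fraction 3 vs DZ, 32 genes and 5 members in Fraction 2 vs Fraction 3 and 23 members in Fraction 1 vs Fraction 2. With only the 6 libraries compared, 0 genes were called in Fraction 3 vs DZ, 0 genes and 0 members in Fraction 2 vs Fraction 3, and 261 genes and 10 members in Fraction 2 vs DZ. The deviations of same-numbered libraries of different groups had correlations of -0.043 to 0.039 over 30 pairs. Those of libraries with different numbers had correlations of -0.037 to 0.053 over 60 pairs. Noise in each library could hide a shared source, so these values cannot decide whether the numbers pair the libraries. With the replicate number as a block, Fraction 2 vs Fraction 3 gave 40 genes and 5 members, and members numbered 20 in Fraction 2 vs DZ, 35 in Fraction 1 vs Fraction 2 and 48 in GC-PB vs Fraction 1. Leaving out 1 library gave 43 to 94 genes in Fraction 3 vs DZ, 17 to 36 genes and 1 to 4 members in Fraction 2 vs Fraction 3, 208 to 273 genes and 10 to 15 members in Fraction 2 vs DZ, 531 to 670 genes and 24 to 29 members in Fraction 1 vs Fraction 2, and 3487 to 3878 genes and 48 members in GC-PB vs Fraction 1. Fewer libraries leave less information on the spread, and for the other changes the cause was not tested. No called difference changed direction. With all libraries kept, uncalled members whose sign turned were Nip7 in GC-PB vs Fraction 1 with median ratios (0.11), Tcof1 (0.13) and Utp15 in Fraction 2 vs Fraction 3 and Ddx10 in Fraction 2 vs DZ as deposited, and in Fraction 3 vs DZ Ppan and Npm1 with Rn45s in the total and Utp20, Wdr12 and Wdr74 with a pseudocount of 0.1. The step, worth 0.107 to 0.233 at equal totals, limits the members with levels near 1, such as Rrp12, Nat10 and Noc3l.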
